A study of Mus musculus with 15 samples.

Results

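The genes described here encode the extracellular matrix: collagens, laminins, matrilins, thrombospondins, proteoglycans and the glycoproteins bound to them. Every mouse protein-coding gene named as a collagen chain (*Col*), a laminin chain (*Lama*, *Lamb*, *Lamc*), a matrilin (*Matn*) or a thrombospondin (*Thbs*) was taken, together with 17 named matrix genes such as *Fn1*, *Sparc*, *Vcan* and *Dcn*. This gave 80 of the 35142 genes measured, among them 44 collagen and 11 laminin chains. The choice used gene symbols and no measured value, but it was made with earlier results of these data known. Bulk RNA-seq was performed on 15 cultures of dissociated cerebellar cells from wild-type C57BL/6 pups of postnatal day 0 to 4, plated at 90000 cells per well. On day 14 in vitro, 5 cultures were left unstimulated, and 5 received IL-12 at 30 ng/ml and 5 at 100 ng/ml for 18 h. The cytokine was recombinant murine IL-12p70, its active form. The cultures carried no engineered allele. The labels number the cultures within each group without saying whether they came from separate litters or preparations, so the tests measure the spread between these cultures.

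Collagens are chains that wind into triple helices. Fibrillar collagens form cables, collagen IV forms the sheet of the basement membrane together with laminins, nidogens and perlecan, and the fibril-associated collagens sit on the surface of the cables. In brain tissue most fibrillar collagen lies in the meninges and around vessels, whereas the matrix between neurons and glia is rich in hyaluronan, lecticans such as brevican and neurocan, and tenascins. Matrilins are adaptor proteins that join collagens and proteoglycans into networks, and thrombospondins are secreted calcium-binding glycoproteins, some of which astrocytes release to promote synapse formation.

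The libraries held 25746096 to 38435850 estimated reads, and 1.51% to 1.81% of them fell on the 80 matrix genes. Although the labels call the cells neurons, 12 neuron markers summed to only 170 to 238 TPM (a level corrected for transcript length and depth) in the 15 cultures, and the Purkinje cell marker *Pcp2* was under 1 TPM. In unstimulated cultures, 12 microglia markers summed to 8266 to 11688 TPM, 12 oligodendrocyte lineage markers to 6645 to 9860 TPM and 11 astrocyte markers to 3839 to 4298 TPM. Markers of several cell types were thus present, and in such bulk samples fewer cells of a type and less RNA per cell cannot be told apart. Some markers of cells that build fibrous matrix were also found. The 8 mural cell markers summed to 955 to 1066 TPM. Of them, *Rgs5*, *Kcnj8*, *Abcc9* and *Myh11* were under 1 TPM, so the sum rested on *Pdgfrb*, *Acta2*, *Tagln* and *Notch3*. The 12 fibroblast and meningeal markers summed to 33.3 to 38.4 TPM, with *Crabp2*, *Dpt*, *Foxd1*, *Slc22a6* and *Twist2* under 1 TPM. These sums alone do not establish that mural or fibroblast cells were present. Of the endothelial markers, *Cldn5* was listed at 0 in all 15 cultures and *Pecam1*, *Tek*, *Erg* and *Esam* were under 1 TPM.

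Without IL-12 the matrix genes spanned more than 5 orders of magnitude in level. The low end lay at the detection floor, with *Col28a1* at 0.015 TPM and at most 5 estimated reads in any culture. *Sparc*, a secreted collagen-binding protein, led with 3242 ± 167 TPM (SD, n = 5), followed by fibronectin (*Fn1*, 766 ± 79.7 TPM), which cells bind through integrins, and *Sparcl1*, a SPARC relative made by astrocytes, at 460.4 ± 37.3 TPM. The SPARC pair alone held 51.9% of the summed TPM of the 80 genes. Of the 80, 10 exceeded 100 TPM, 38 lay between 10 and 100 TPM, 16 between 1 and 10 TPM and 16 below 1 TPM.

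**Figure D1:**
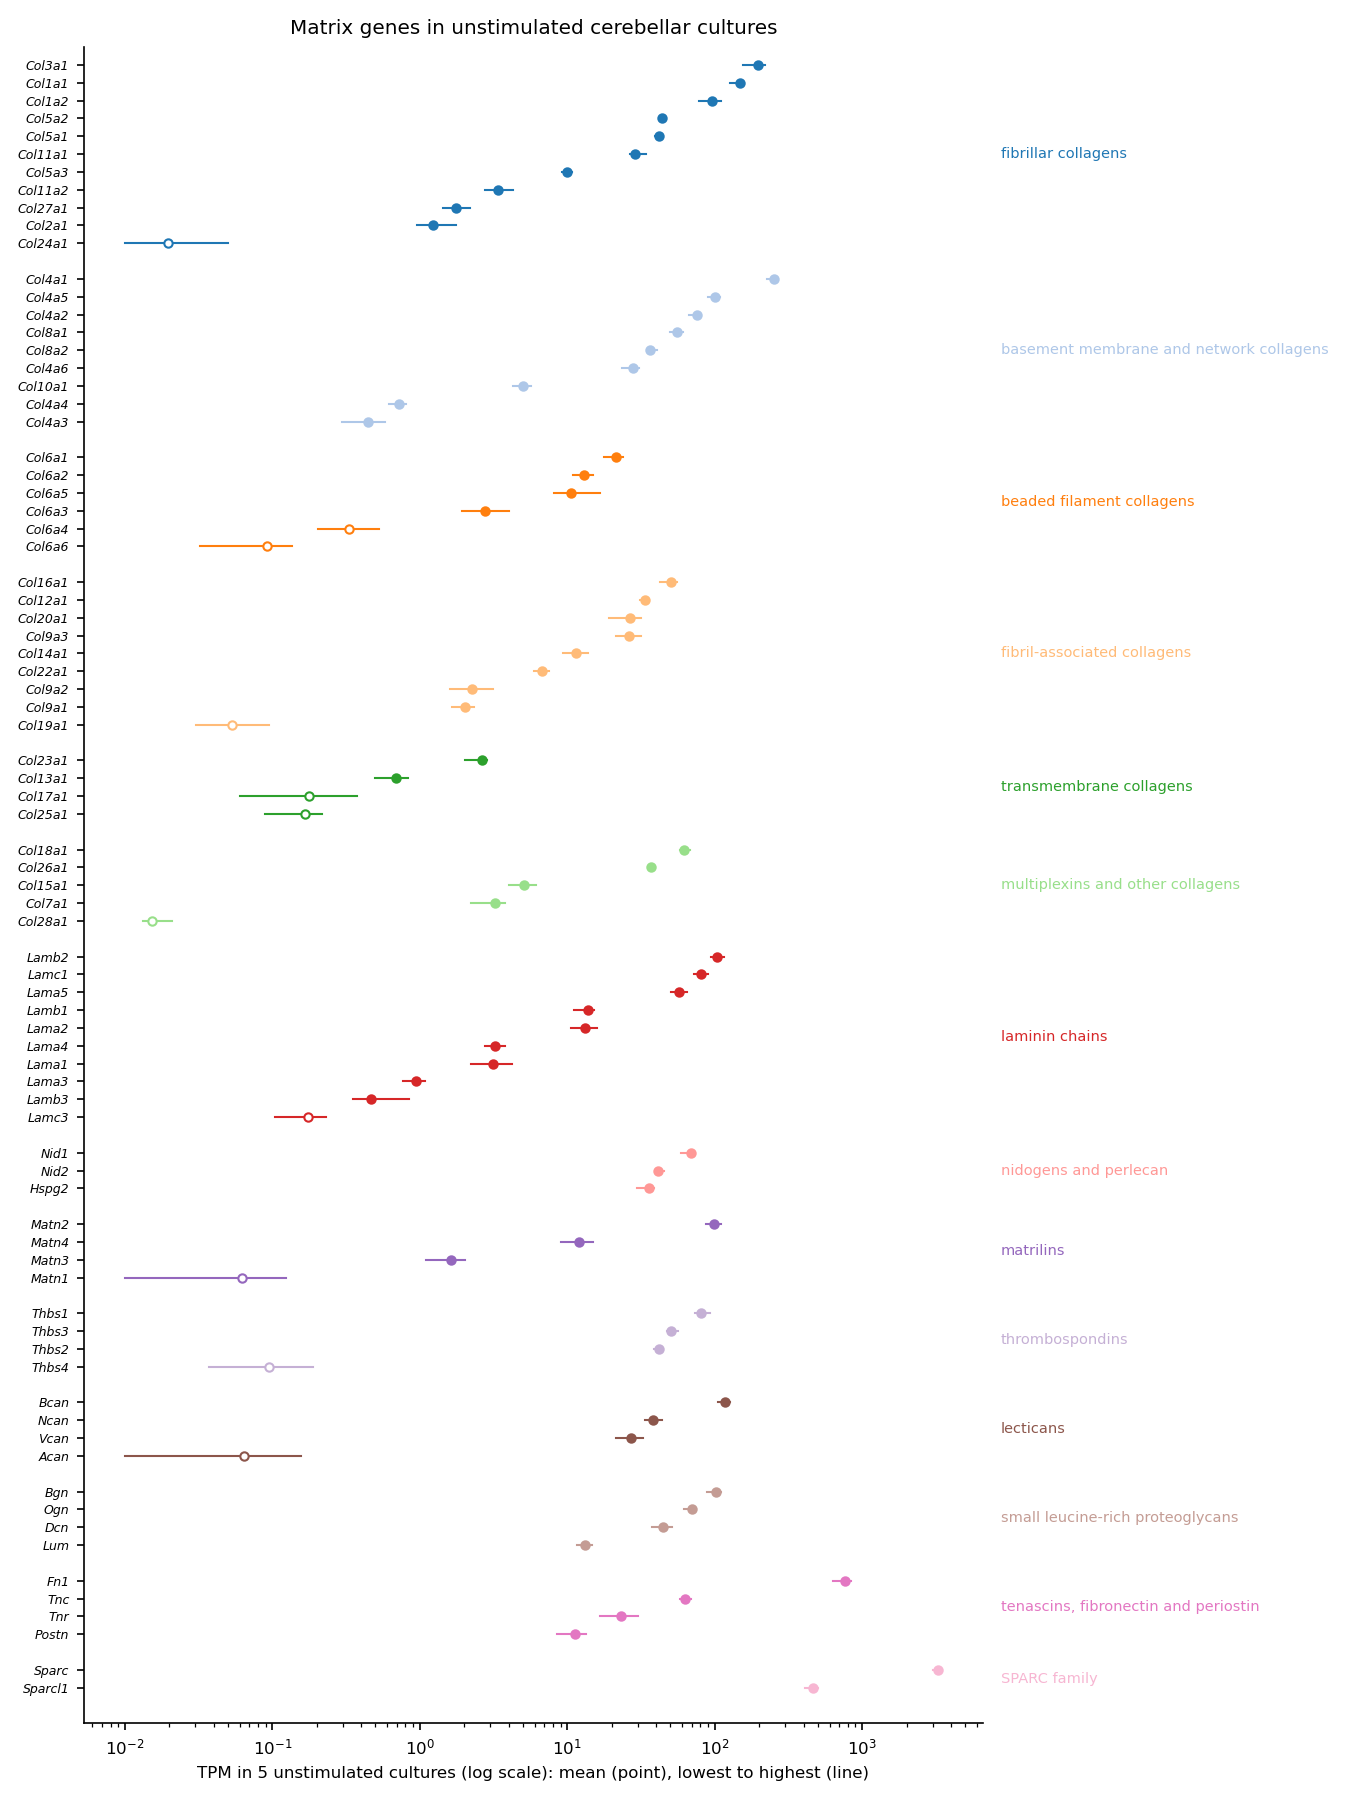
Level of 79 matrix genes in unstimulated cultures, in TPM on a log axis, grouped by family. Points are means of 5 cultures, lines run from the lowest to the highest culture, and open points are the 11 genes too low to be tested, with lines ended at 0.01 TPM where a culture was lower; *Sparc* stands highest at 3242 TPM.

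Among the fibrillar collagens, *Col3a1* had 195 ± 27.4 TPM and *Col1a1*, the main chain of type I collagen, 148 ± 12.7 TPM. The basement membrane was represented by *Col4a1* at 251 ± 14.1 TPM, *Col4a5* at 101 ± 8.36 TPM, *Lamb2* at 103 ± 7.77 TPM and *Lamc1* at 81.1 ± 8.01 TPM, with nidogen (*Nid1*) at 68.5 ± 5.73 TPM and its relative *Nid2* at 41.3 ± 2.36 TPM. The highest members of the other collagen families were *Col6a1* (21.6 ± 2.26 TPM) and *Col6a2* (13.0 ± 1.67 TPM), *Col16a1* (50.5 ± 5.26 TPM) and *Col12a1* (33.8 ± 2.25 TPM), *Col18a1* (61.4 ± 4.21 TPM) and *Col26a1* (36.9 ± 1.69 TPM), and *Col23a1* (2.64 ± 0.36 TPM) and *Col13a1* (0.69 ± 0.13 TPM). Of the smaller families, *Matn2* (99.5 ± 8.67 TPM) stood above *Matn4* (12.0 ± 2.03 TPM), and *Thbs1* (80.6 ± 7.37 TPM) above *Thbs3* (50.4 ± 3.81 TPM). Brevican (*Bcan*, 118 ± 9.80 TPM) was the highest lectican, ahead of neurocan (*Ncan*, 38.3 ± 3.77 TPM). *Bgn* (101 ± 9.04 TPM) and *Ogn* (70.1 ± 5.50 TPM) led the small leucine-rich proteoglycans, which decorate collagen fibrils, and *Tnc* (62.8 ± 4.17 TPM) followed *Fn1* in its family. Aggrecan (*Acan*), the large proteoglycan of cartilage and of nets around neurons, had at most 12 estimated reads in any culture.

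Of the 80 genes, 69 reached 1 CPM, a read count scaled to library size, in at least 2 cultures. The quasi-likelihood test of edgeR was run on all 15360 genes that did so, and its p-values were adjusted after Benjamini and Hochberg (FDR). The 11 others were *Col6a4*, *Col6a6*, *Col17a1*, *Col19a1*, *Col24a1*, *Col25a1*, *Col28a1*, *Lamc3*, *Matn1*, *Thbs4* and *Acan*. Both concentrations were compared with the same 5 unstimulated cultures, so the values below stand side by side and are not independent of each other.

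At 100 ng/ml, 10 of the 69 tested matrix genes rose and 2 fell at an FDR under 0.05, which is 17.4% of them against 9.77% of all tested genes (5.83% rose and 3.93% fell). The risers were *Matn2*, *Thbs2*, *Thbs3*, *Col16a1*, *Col9a3*, *Col12a1*, *Col7a1*, *Col5a3*, *Col1a1* and *Col13a1*, and *Col10a1* and *Lama3* fell. The changes were small, between -0.54 and 0.63 on the log2 scale. In 9 tested matrix genes every stimulated culture lay above every unstimulated culture (4.34% of all genes) and in 2 every one lay below (2.84% of all genes). The median log2 fold change of the 69 was 0.07, beside 0.00 for all genes.

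At 30 ng/ml, 3 of the 69 rose (*Matn2*, *Col16a1* and *Thbs3*) and 4 fell (*Lama1*, *Lama3*, *Col6a2* and *Col6a3*), 10.1% in all against 7.87% of all tested genes (4.16% rose and 3.71% fell). Groups were separate in 5 upward (5.44% of all genes) and 1 downward (3.46% of all genes), and the median log2 fold change was 0.03. The count was sensitive to the method, with 16 calls by DESeq2, 13 when the model held only the 2 groups compared, 11 with library size alone (63.6% of them upward, against 42.9% of the 7), 12 without unstimulated culture 2, 11 without 100 ng/ml culture 2 or 3 (which enter the shared spread), and 2 with an unadjusted p under 0.01 and a log2 change of 0.5. By the last rule, 5 were called at 100 ng/ml. Calls over all genes moved as well, from 673 to 1668 at 30 ng/ml with each culture left out in turn, against 1209 in the main fit. The member counts under other settings stand here without the share of all genes, so they are not a result about the matrix genes alone.

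**Figure D2:**
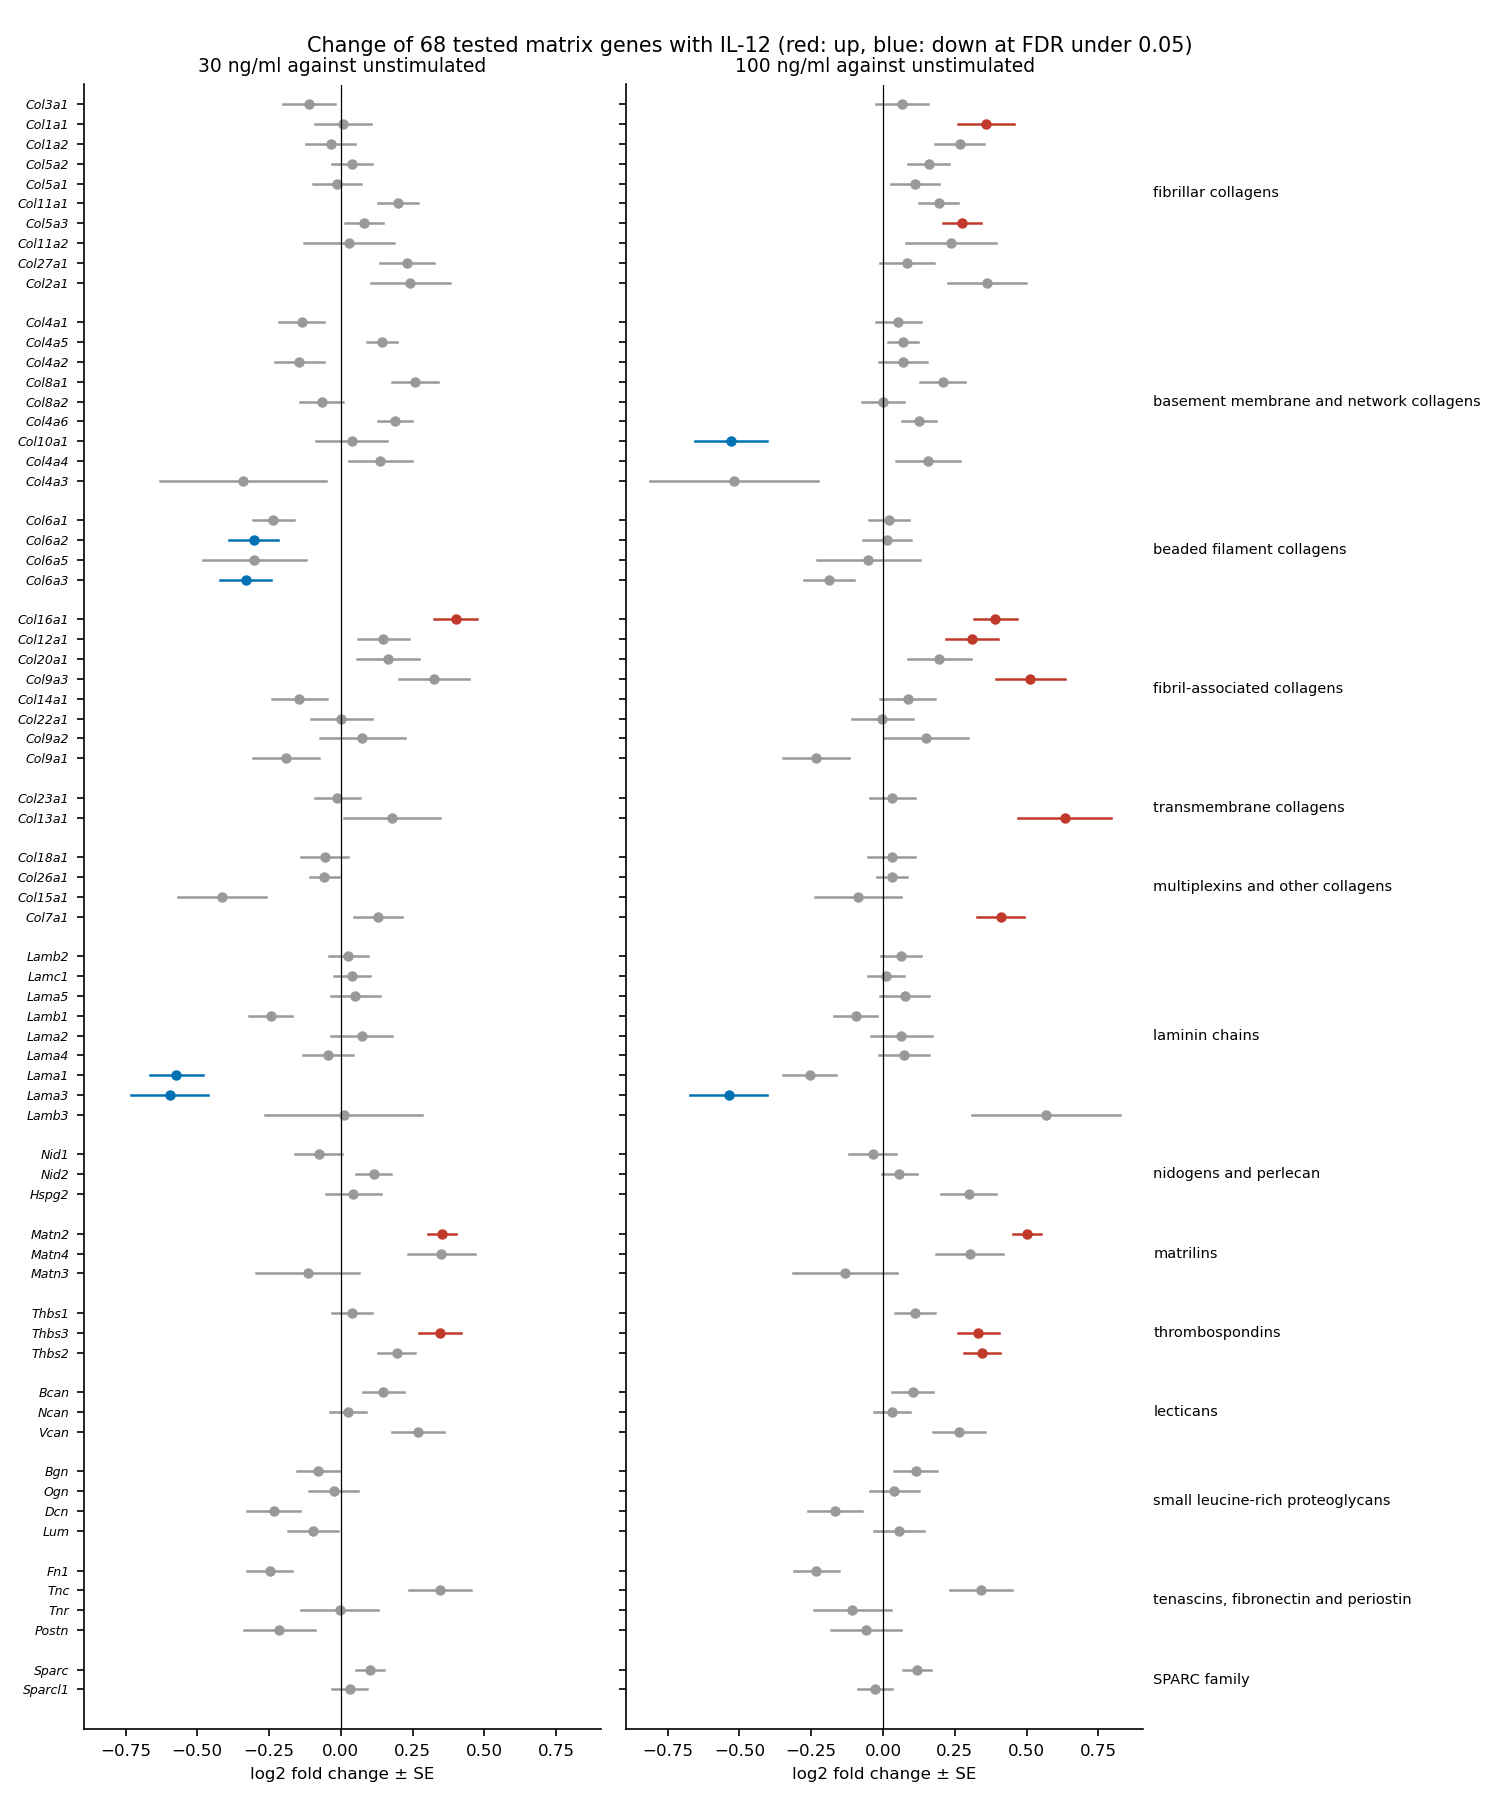
Log2 fold change against unstimulated cultures, with its standard error, of 68 tested matrix genes at 30 and 100 ng/ml, by family. Red marks genes that rose and blue genes that fell at an FDR under 0.05; 10 and 2 are coloured at 100 ng/ml, 3 and 4 at 30 ng/ml.

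The clearest rise was that of *Matn2*, matrilin-2, an adaptor of the loose matrix around nerves and vessels (ENSMUSG00000022324, chr15:34306614-34437573, plus strand, GRCm39). Its 5 unstimulated cultures had 199, 231, 190.4, 219 and 217 CPM. At 30 ng/ml it had 265, 270.0, 263, 274 and 276 CPM, and at 100 ng/ml 306, 283, 312, 298 and 296 CPM. The 3 groups did not overlap. The log2 fold change was 0.35 ± 0.05 (SE, FDR = 0.000479) at 30 ng/ml and 0.50 ± 0.05 (FDR = 4.77e-06) at 100 ng/ml, while the step of 0.15 ± 0.05 from 30 to 100 ng/ml was not called (FDR = 0.202). *Matn4*, found in the nervous system, had a log2 fold change of 0.35 ± 0.12 (FDR = 0.0758) at 30 ng/ml and 0.30 ± 0.12 (FDR = 0.111) at 100 ng/ml, and *Matn3*, a cartilage matrilin, -0.12 ± 0.18 and -0.13 ± 0.18.

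*Thbs2*, a thrombospondin that binds matrix proteases and growth factors (ENSMUSG00000023885, chr17:14885761-14914528, minus strand), had 156, 143, 153, 168 and 149 CPM in unstimulated cultures and 188, 197, 226, 185 and 181 CPM at 100 ng/ml. All 100 ng/ml cultures were higher, with a log2 fold change of 0.35 ± 0.06 (FDR = 0.0025). The 30 ng/ml range of 166 to 190.1 CPM overlapped that of the unstimulated cultures (log2 fold change 0.19 ± 0.06, FDR = 0.0699).

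*Thbs3*, which assembles as a pentamer, had 26.7, 30.6, 32.1, 32.4 and 28.4 CPM unstimulated, 36.6, 35.6, 37.2, 39.3 and 41.9 CPM at 30 ng/ml and 44.1, 34.0, 38.5, 34.9 and 37.2 CPM at 100 ng/ml. Both stimulated groups lay wholly above, by 0.35 ± 0.07 (FDR = 0.00743) and 0.33 ± 0.07 (FDR = 0.00778) on the log2 scale. Only 20.9% of its TPM came from protein-coding transcripts, and 45.4% came from a retained-intron transcript of 455 bases. *Thbs3* also overlaps *Mtx1* on the other strand, whose log2 fold change was 0.07 ± 0.07 and 0.14 ± 0.07 (FDR = 0.573 and 0.223). *Thbs1*, the best known activator of latent TGF-beta among them, had 0.04 ± 0.07 (FDR = 0.8) and 0.11 ± 0.07 (FDR = 0.337).

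**Figure D3:**
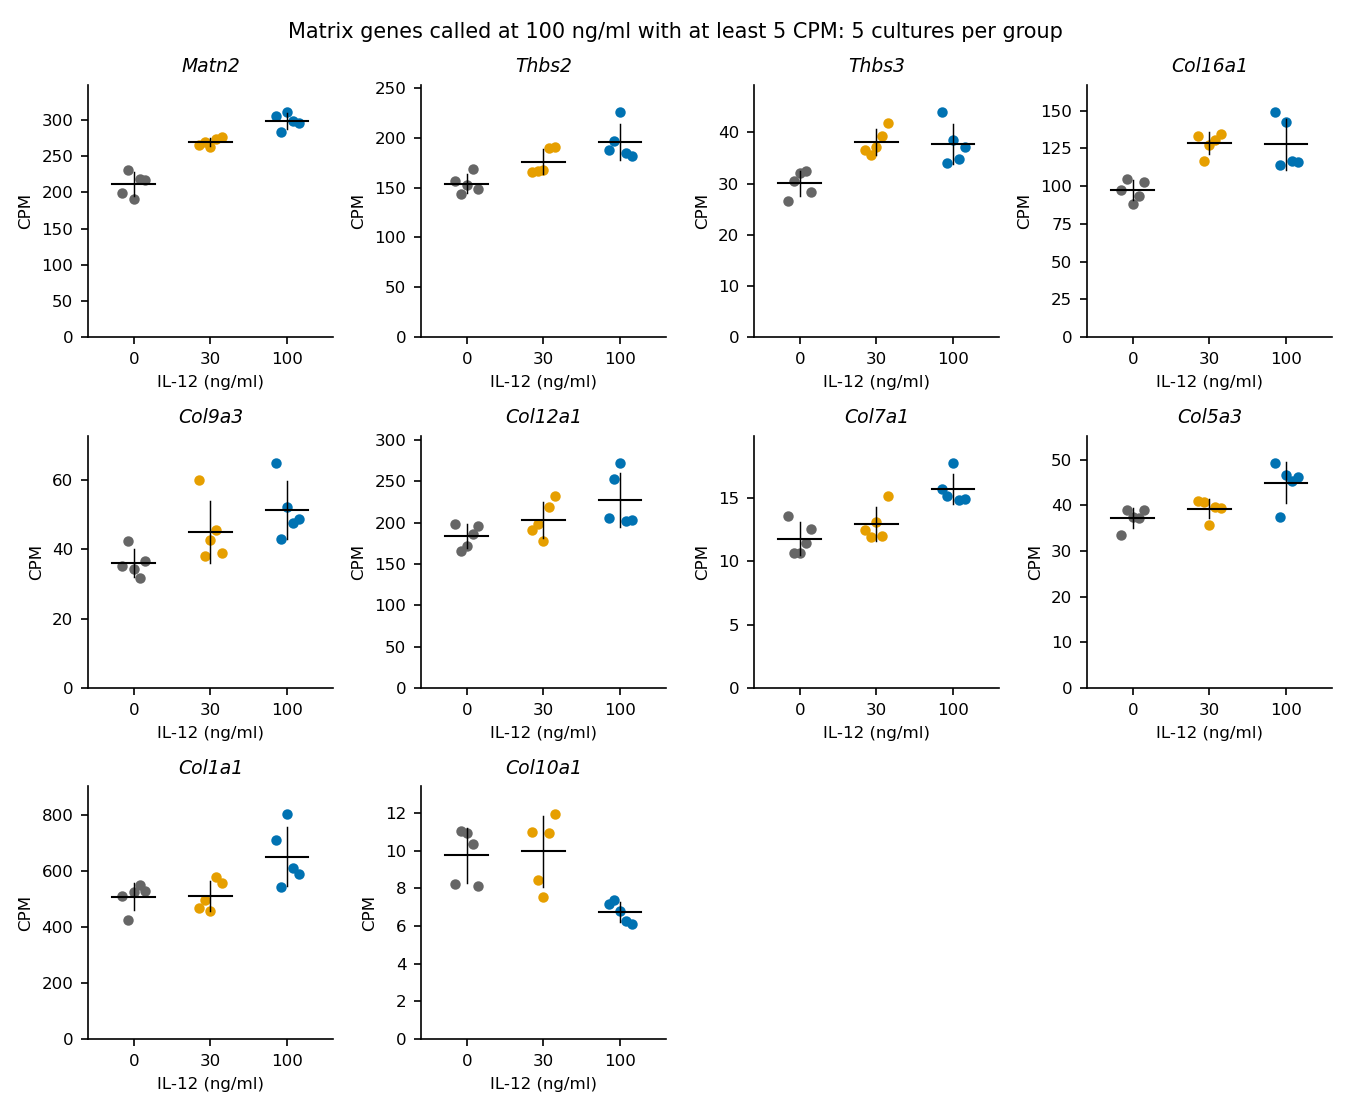
CPM of the 10 matrix genes with at least 5 CPM that were called at 100 ng/ml, in each culture at 0, 30 and 100 ng/ml IL-12. Points are cultures, horizontal lines group means and vertical lines 1 SD (n = 5); *Matn2* climbs from 211 to 299 CPM and *Col10a1* drops from 9.74 to 6.74 CPM.

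At 100 ng/ml, 7 of 37 tested collagen chains rose and 1 fell (21.6%, against 9.77% of all tested genes), and of the 32 tested members other than collagens 3 rose and 1 fell (12.5%). The difference between these shares was not tested. All 10 tested fibrillar collagens had a log2 fold change above 0 at 100 ng/ml, with a median of 0.22, but only *Col1a1* and *Col5a3* were called. *Col3a1* ranged from -0.009 to 0.125 over 24 alternative settings, so its sign did not hold in all of them. At 30 ng/ml 7 of 10 were above 0, with a median of 0.03 and no call. Of all 15360 tested genes, 7473 were above 0 at 100 ng/ml and 7690 at 30 ng/ml. *Col1a1* had 508, 425, 525, 549.8 and 527 CPM unstimulated, 468, 495, 455, 576 and 555 CPM at 30 ng/ml, and 709, 543, 804, 609.8 and 587 CPM at 100 ng/ml. The 100 ng/ml range began within the unstimulated one, and cultures 1 and 3 stood highest (log2 fold change 0.36 ± 0.10, FDR = 0.0282). Without culture 3 at 100 ng/ml the FDR was 0.0772 and without culture 1 it was 0.0737; without unstimulated culture 1 or 2 it was 0.0564 or 0.0637. Its partner chain *Col1a2* reached 0.27 ± 0.08 (FDR = 0.0554).

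*Col5a3*, a minor chain of type V collagen, which helps to set fibril width, had 33.5, 39.01, 37.4, 37.2 and 39.1 CPM unstimulated and 49.3, 37.4, 46.7, 45.2 and 46.2 CPM at 100 ng/ml. Of the 5 stimulated cultures, 4 exceeded all unstimulated ones (log2 fold change 0.28 ± 0.07, FDR = 0.0136). At 30 ng/ml, with 41.0, 40.7, 35.7, 39.5 and 39.5 CPM, the difference was 0.08 ± 0.07 (FDR = 0.52).

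Of 8 tested fibril-associated collagens, 3 rose at 100 ng/ml (37.5%, against 5.83% of all tested genes). *Col16a1*, which links fibrils to cells (ENSMUSG00000040690, chr4:129941154-129993076, plus strand), had 97.6, 105, 88.3, 93.6 and 103 CPM unstimulated, 134, 117, 128, 131 and 135 CPM at 30 ng/ml and 149, 114, 142, 117 and 116 CPM at 100 ng/ml. Both stimulated groups were wholly above, by 0.40 ± 0.07 (FDR = 0.00389) and 0.39 ± 0.07 (FDR = 0.00327) on the log2 scale. With protein-coding transcripts alone, which held 66.1% of its TPM, the FDR was 0.0578 and 0.0895.

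*Col9a3*, a chain of the cartilage collagen IX, had 35.1, 42.3, 34.2, 31.6 and 36.6 CPM unstimulated and 65.0, 42.9, 52.2, 47.5 and 48.7 CPM at 100 ng/ml. The lowest stimulated culture lay just above the highest unstimulated one (log2 fold change 0.51 ± 0.12, FDR = 0.0132; 0.0703 with length-scaled counts). The 30 ng/ml cultures had 59.9, 37.95, 42.8, 45.6 and 38.97 CPM, which overlapped (0.33 ± 0.12, FDR = 0.111). *Tcfl5*, a transcription factor gene that overlaps *Col9a3* on the opposite strand, rose by 0.63 ± 0.15 (FDR = 0.016) and 0.75 ± 0.15 (FDR = 0.00418), and its part in the *Col9a3* value was not tested. The other chains of collagen IX were not called: *Col9a2* had 0.15 ± 0.15 and *Col9a1* -0.23 ± 0.11 at 100 ng/ml.

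*Col12a1*, a fibril-associated collagen of dense tissue, rose by 0.31 ± 0.09 (FDR = 0.0378) at 100 ng/ml, from a mean of 184 to 228 CPM. The call was lost without culture 2 or 3 at 100 ng/ml (FDR = 0.0518 and 0.103), without unstimulated culture 2, 3, 4 or 5 (FDR between 0.0532 and 0.0808) and when only the groups compared were fitted (FDR = 0.0539). *Col7a1*, the anchoring fibril collagen, had 13.6, 10.7, 10.7, 11.5 and 12.5 CPM unstimulated and 15.7, 15.2, 17.8, 14.9 and 14.95 CPM at 100 ng/ml, without overlap (0.41 ± 0.08, FDR = 0.00483). With length-scaled counts its FDR was 0.224. *Col13a1*, a transmembrane collagen near the detection limit, rose to a mean of 1.55 CPM from 0.9980 CPM (0.63 ± 0.16, FDR = 0.02), and its FDR was 0.158 with protein-coding transcripts alone, 0.0937 with length-scaled counts, and 0.0556, 0.059 and 0.0548 without unstimulated culture 5 or culture 1 or 4 at 100 ng/ml.

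*Col10a1*, a network collagen known from growth plate cartilage (ENSMUSG00000039462, chr10:34265971-34273081, plus strand), was the collagen that fell. It had 8.23, 11.0, 11.0, 10.4 and 8.10 CPM unstimulated, 11.0, 8.45, 7.52, 10.9 and 12.0 CPM at 30 ng/ml and 7.17, 7.36, 6.80, 6.29 and 6.09 CPM at 100 ng/ml. All 100 ng/ml cultures were below both other groups, which overlapped each other. The log2 fold change was -0.53 ± 0.13 (FDR = 0.0136) at 100 ng/ml and 0.04 ± 0.12 (FDR = 0.896) at 30 ng/ml. *Nt5dc1*, which spans the locus on the opposite strand, had 0.03 ± 0.08 and -0.01 ± 0.08.

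Promoter sequences are shown for 4 of these genes, the 3 risers with an exon-free upstream window that had the smallest FDR and *Col10a1*, so that their base composition can be compared. Each is the 250 bases before the canonical start in GRCm39, read on the gene's strand at chr15:34306364-34306613 (plus), chr17:14914529-14914778 (minus), chr4:129940904-129941153 (plus) and chr10:34265721-34265970 (plus). Capitals mark matches on either strand to the GC box (GGGCGG), the CCAAT box (CCAAT) or the TATA box (TATAAA).
Matn2: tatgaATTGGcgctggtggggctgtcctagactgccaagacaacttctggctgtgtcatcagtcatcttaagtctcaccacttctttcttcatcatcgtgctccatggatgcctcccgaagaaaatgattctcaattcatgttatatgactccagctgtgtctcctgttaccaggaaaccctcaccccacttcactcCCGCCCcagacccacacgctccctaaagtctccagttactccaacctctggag
Thbs2: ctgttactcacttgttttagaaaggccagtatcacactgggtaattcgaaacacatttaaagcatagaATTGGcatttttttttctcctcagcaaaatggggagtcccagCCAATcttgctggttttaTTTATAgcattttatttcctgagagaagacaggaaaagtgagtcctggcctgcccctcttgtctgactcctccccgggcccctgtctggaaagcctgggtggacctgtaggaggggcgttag
Col16a1: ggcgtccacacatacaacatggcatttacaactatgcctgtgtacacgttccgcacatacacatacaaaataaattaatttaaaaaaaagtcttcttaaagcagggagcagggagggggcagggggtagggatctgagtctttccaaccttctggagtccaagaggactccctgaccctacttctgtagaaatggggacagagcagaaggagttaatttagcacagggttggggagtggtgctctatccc
Col10a1: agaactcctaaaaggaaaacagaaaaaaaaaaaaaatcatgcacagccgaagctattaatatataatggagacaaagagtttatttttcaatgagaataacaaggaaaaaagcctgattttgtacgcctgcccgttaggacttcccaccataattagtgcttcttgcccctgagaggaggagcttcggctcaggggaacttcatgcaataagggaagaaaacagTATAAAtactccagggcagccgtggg
The GC content was 50.4% for *Matn2*, 46.8% for *Thbs2*, 47.2% for *Col16a1* and 40.8% for *Col10a1*, beside a median of 53.2% over 21770 promoters of protein-coding genes. The *Matn2* window held a GC box match and a CCAAT match, *Thbs2* 2 CCAAT matches and a TATA match, *Col10a1* a TATA match and *Col16a1* none of them. The TATA match of *Thbs2* was on the opposite strand and that of *Col10a1* on the gene's strand. The search used neither strand nor distance from the start, so a match does not show a working element. Over all promoters the GC box letters were found in 36.3%, CCAAT in 36.5% and TATAAA in 11.9%, and among the 80 matrix genes in 39, 26 and 10. The STAT-type letters TTCNNNGAA were in 7.70% of all promoters and 6 of the 80, and the AP-1-type letters TGANTCA in 6.17% and 1 of the 80. None of the 4 printed windows held either, which says only that these letters are not in these windows.

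Laminins are trimers of an alpha, a beta and a gamma chain, and 10 of the 11 chains were tested. At 30 ng/ml, 2 alpha chains fell and no chain rose. *Lama1*, the alpha chain of early basement membranes and meninges, had 15.9, 13.1, 18.4, 18.6 and 18.5 CPM unstimulated, 9.77, 11.1, 10.7, 11.9 and 13.3 CPM at 30 ng/ml and 13.7, 13.8, 14.2, 14.2 and 14.7 CPM at 100 ng/ml. The highest 30 ng/ml culture reached just above the lowest unstimulated one, and the difference was -0.57 ± 0.09 (FDR = 0.0014). With 100 ng/ml it was -0.26 ± 0.09 (FDR = 0.0853). *Lama3*, the epithelial alpha chain, went from a mean of 5.34 CPM to 3.53 and 3.69 CPM, with every stimulated culture below every unstimulated one. On the log2 scale it differed by -0.60 ± 0.14 (30 ng/ml, FDR = 0.0121) and -0.54 ± 0.13 (100 ng/ml, FDR = 0.0175), the latter with an FDR of 0.0543 without unstimulated culture 1 and 0.0505 without culture 3 at 100 ng/ml.

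None of the other tested laminin chains was called. *Lamb1* had -0.24 ± 0.08 (FDR = 0.0561) at 30 ng/ml and -0.10 ± 0.08 at 100 ng/ml. With the higher concentration the values were 0.06 ± 0.07 for *Lamb2*, 0.01 ± 0.06 for *Lamc1*, 0.08 ± 0.09 for *Lama5*, 0.06 ± 0.11 for *Lama2*, 0.07 ± 0.09 for *Lama4* and 0.57 ± 0.26 for *Lamb3*. Of the laminin-binding partners, *Nid1* had -0.04 ± 0.08, *Nid2* 0.06 ± 0.06 and perlecan (*Hspg2*), the heparan sulfate proteoglycan of the basement membrane, 0.30 ± 0.10 (FDR = 0.0566).

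Collagen VI forms beaded filaments around cells. All 4 tested chains were below 0 at 30 ng/ml, from -0.33 to -0.24, and 2 were called, where 3.71% of all tested genes fell. *Col6a2* had 26.9, 24.8, 33.9, 35.1 and 28.6 CPM unstimulated, 21.6, 25.7, 25.5, 23.4 and 24.8 CPM at 30 ng/ml and 28.8, 27.5, 31.3, 30.8 and 32.1 CPM at 100 ng/ml. *Col6a3* had 11.9, 10.8, 13.4, 13.2 and 15.4 CPM, then 8.68, 10.4, 11.1, 10.3 and 10.9 CPM, then 10.6, 11.3, 11.4, 10.8 and 12.5 CPM. In both, the 30 ng/ml cultures were the lowest group but overlapped the unstimulated ones. *Col6a2* differed by -0.30 ± 0.08 (FDR = 0.0343) and *Col6a3* by -0.33 ± 0.09 (FDR = 0.029) on the log2 scale. *Col6a1* had -0.24 ± 0.07 (FDR = 0.0502) and *Col6a5* -0.30 ± 0.18 (FDR = 0.345).

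At 100 ng/ml no collagen VI chain was called, with values of 0.02 ± 0.07, 0.01 ± 0.08, -0.19 ± 0.09 and -0.05 ± 0.18 for *Col6a1*, *Col6a2*, *Col6a3* and *Col6a5*. The 30 ng/ml calls of *Col6a2* and *Col6a3* were each lost in 7 of 24 alternatives. The FDR of *Col6a2* was 0.0536 to 0.103 without unstimulated culture 3, 4 or 5 or culture 1, 4 or 5 at 30 ng/ml, and that of *Col6a3* was 0.0503 to 0.0824 without unstimulated culture 3, 4 or 5 or culture 1, 2 or 4 at 30 ng/ml; with length-scaled counts they were 0.0514 and 0.151.

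**Figure D4:**
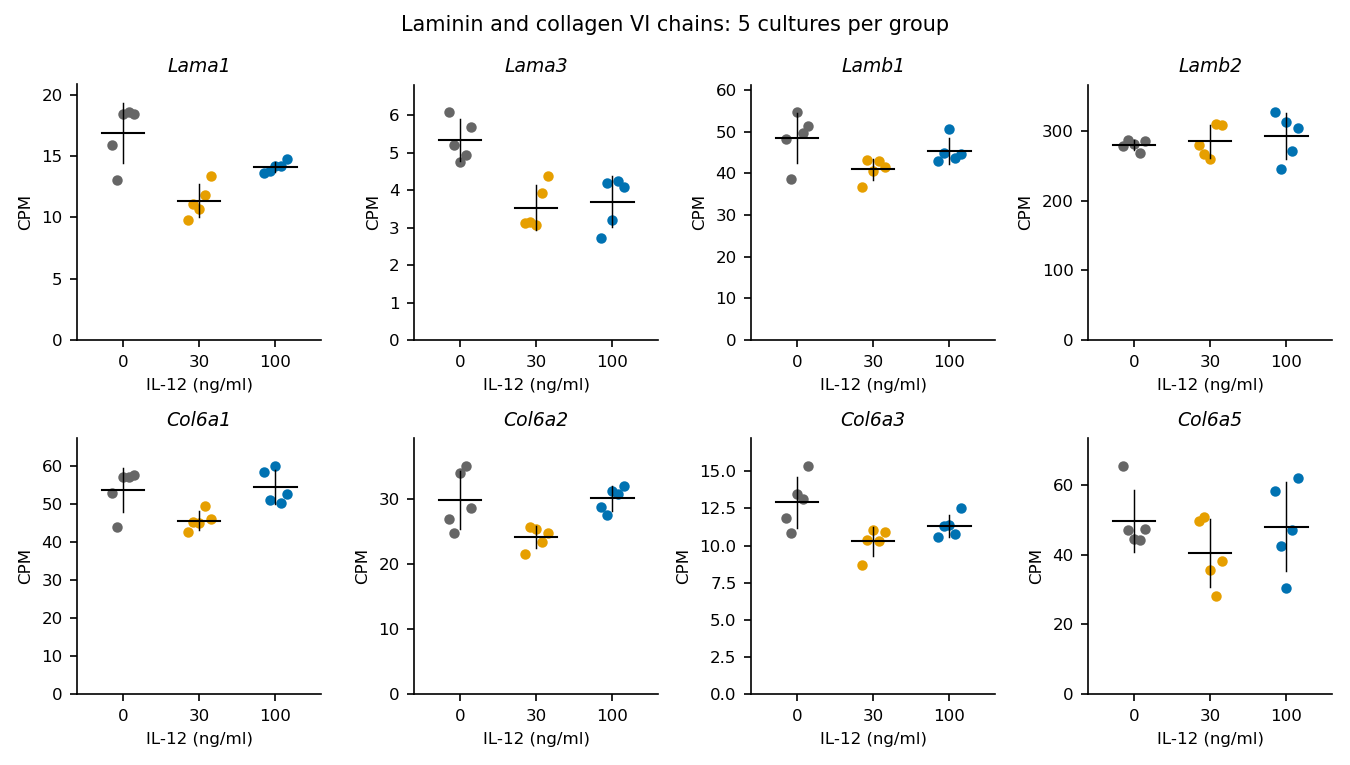
CPM of 4 laminin and 4 collagen VI chains in each culture at 0, 30 and 100 ng/ml IL-12. Points are cultures, horizontal lines group means and vertical lines 1 SD (n = 5); *Lama1* is lowest at 30 ng/ml (mean 11.4 CPM) and *Lama3* is lower at both concentrations.

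Collagen IV, the core of the basement membrane, was not called in any chain. The higher concentration gave log2 fold changes of 0.05 ± 0.08 for *Col4a1*, 0.07 ± 0.09 for *Col4a2*, 0.07 ± 0.05 for *Col4a5*, 0.13 ± 0.06 for *Col4a6*, 0.16 ± 0.11 for *Col4a4* and -0.52 ± 0.29 for *Col4a3*. With 30 ng/ml, *Col4a1* and *Col4a2* both had -0.14, with SE of 0.08 and 0.09, whereas *Col4a5* had 0.14 ± 0.05 (FDR = 0.105) and *Col4a6* 0.19 ± 0.06 (FDR = 0.0599). *Col8a1*, a vessel wall collagen, had 0.26 ± 0.08 (FDR = 0.0526) at 30 ng/ml and 0.21 ± 0.08 (FDR = 0.105) at 100 ng/ml.

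The ratios of chains that assemble together were narrow for some pairs and wide for others. The TPM ratio of *Col4a1* to *Col4a2* lay between 3.04 and 3.59 in all 15 cultures, that of *Col1a1* to *Col1a2* between 1.43 and 1.80, and that of *Col6a1* to *Col6a2* between 1.49 and 1.94, whereas *Col6a1* to *Col6a3*, of the same trimer, ran from 5.56 to 11.1. The ratio of *Lamb2* to *Lamb1*, alternative beta chains that do not share a trimer, was 7.50 ± 1.15 (SD, n = 5) unstimulated, 9.06 ± 1.16 at 30 ng/ml and 8.06 ± 0.69 at 100 ng/ml, and these groups overlapped.

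None of the 3 tested lecticans and neither tenascin was called. Among the lecticans, which bind hyaluronan, brevican had 0.15 ± 0.07 and 0.10 ± 0.07, neurocan 0.03 ± 0.06 and 0.03 ± 0.06, and versican (*Vcan*) 0.27 ± 0.09 (FDR = 0.0756) and 0.26 ± 0.09 (FDR = 0.0726) at 30 and 100 ng/ml. Tenascin-C (*Tnc*), a glycoprotein induced in injured tissue, had 248 to 287 CPM unstimulated, 300.1 to 399 CPM at 30 ng/ml and 288 to 456 CPM at 100 ng/ml. No stimulated culture overlapped the unstimulated ones, yet the FDR was 0.0588 (0.35 ± 0.11) and 0.0557 (0.34 ± 0.11). Tenascin-R (*Tnr*), made by oligodendrocytes, had -0.11 ± 0.13 at 100 ng/ml.

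Fibronectin (*Fn1*) had values of -0.25 ± 0.08 (FDR = 0.0618) and -0.23 ± 0.08 (FDR = 0.0712), and periostin (*Postn*) -0.21 ± 0.12 and -0.06 ± 0.12. The most abundant gene, *Sparc*, had 0.10 ± 0.05 and 0.12 ± 0.05 (FDR = 0.219 and 0.13), and *Sparcl1* 0.03 ± 0.06 and -0.03 ± 0.06. The 4 small leucine-rich proteoglycans lay between -0.23 and -0.02 at 30 ng/ml and between -0.17 and 0.11 at 100 ng/ml, with decorin (*Dcn*) lowest in both. Summed over the 80 genes, the TPM was 7131 ± 189 unstimulated, 7476 ± 255 at 30 ng/ml and 7493 ± 382 at 100 ng/ml.

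Between 100 and 30 ng/ml, 1 of 69 matrix genes was called, against 0.579% of all genes (0.0781% lower at 100 ng/ml). This was *Col10a1*, lower at 100 ng/ml by a log2 fold change of -0.57 ± 0.13 (FDR = 0.0486). The call was lost in 13 of 24 alternatives, among them length-scaled counts (FDR = 0.0707), protein-coding transcripts alone (0.0738) and the omission of unstimulated culture 3 or 4, culture 1, 4 or 5 at 30 ng/ml or culture 1, 3, 4 or 5 at 100 ng/ml (0.0526 to 0.144). *Col10a1* was also the only matrix gene with every 100 ng/ml culture below every 30 ng/ml culture (1.23% of all genes). Every 100 ng/ml culture exceeded every 30 ng/ml culture in 6 matrix genes (*Col1a2*, *Col6a1*, *Col6a2*, *Col13a1*, *Lama1* and *Matn2*; 1.74% of all genes). None of the 6 was called, with FDR of 0.12 for *Col6a2* and 0.168 for *Lama1*.

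Of 27 tested genes that fold, process and crosslink collagen, 6 rose and 1 fell at 100 ng/ml (25.9%, against 9.77% of all tested genes), and 6 rose and 2 fell at 30 ng/ml (29.6%, against 7.87%). The other 20 and 19 were not called. *P4ha1*, a catalytic subunit of the prolyl hydroxylase that stabilizes the collagen helix, fell by 0.62 ± 0.06 on the log2 scale with 30 ng/ml (FDR = 2.49e-05) and by 0.67 ± 0.06 with 100 ng/ml (FDR = 2.74e-06). The crosslinking enzymes *Loxl1* (0.49 ± 0.12, FDR = 0.0141) and *Loxl3* (0.35 ± 0.06, FDR = 0.00165) and the procollagen peptidase *Adamts14* (0.39 ± 0.08, FDR = 0.00515) rose at 100 ng/ml.

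Of 28 matrix receptors, 3 rose and 3 fell at 100 ng/ml (21.4%, against 9.77% of all tested genes) and 2 rose and 2 fell at 30 ng/ml (14.3%, against 7.87%). Under 100 ng/ml the laminin-binding *Itga7* rose by 0.44 ± 0.06 (FDR = 0.000117), the fibronectin receptor chain *Itga5* by 0.24 ± 0.05 (FDR = 0.00437) and the heparan sulfate proteoglycan *Sdc4* by 0.18 ± 0.04 (FDR = 0.0156), and the laminin-binding *Itga6* fell by 0.24 ± 0.06 (FDR = 0.0243). Of 13 tested hyaluronan synthases, link proteins and lecticanases, 2 rose and 1 fell at 100 ng/ml (23.1%), and 3 rose and 1 fell at 30 ng/ml (30.8%), against the same shares of all genes. The lecticanase *Adamts5* rose by 0.38 ± 0.06 (FDR = 0.00117) and the hyaluronan-modifying *Tnfaip6* by 0.36 ± 0.10 (FDR = 0.0296), and the hyaluronidase *Hyal1* fell by 0.30 ± 0.07 (FDR = 0.0131) at 100 ng/ml.

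Of 48 other core matrix genes, 7 rose and none fell at 100 ng/ml (14.6%, against 9.77% of all tested genes), and 4 rose and 4 fell at 30 ng/ml (16.7%, against 7.87%). The risers included the neural proteoglycan *Cspg5* (0.39 ± 0.07, FDR = 0.0012), the integrin ligand *Tgfbi* (0.47 ± 0.08, FDR = 0.00159), the TGF-beta-binding *Ltbp1* (0.33 ± 0.07, FDR = 0.00726) and *Emilin1* of elastic fibers (0.37 ± 0.09, FDR = 0.0195).

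Levels of cell type markers moved with some of these groups. The highest of the 5 cultures at 100 ng/ml was culture 3 for 34 and culture 1 for 18 of the 69 matrix genes, and for 6 and 4 of the 10 fibrillar collagens. The highest culture was not counted over all tested genes, so these counts may not be particular to the matrix. The 8 mural markers also summed highest in cultures 3 and 1 at 100 ng/ml, at 1395 and 1143 TPM, against 969 to 1071 TPM in the other 3. At 30 ng/ml, where no fibrillar collagen was called, cultures 4 and 5 had 1229 and 1218 TPM and the other 3 lay between 931 and 979 TPM. In that group, cultures 4 and 5 also stood highest for *Col1a1* (576 and 555 CPM, against 455 to 495 CPM), *Col5a1*, *Col5a2* and *Col11a1*. They did not both stand highest for *Col1a2*, *Col2a1*, *Col3a1*, *Col5a3*, *Col11a2* or *Col27a1*. Of 5 tested mural markers, 1 rose at 100 ng/ml, where 5.83% of all tested genes rose, and none was called at 30 ng/ml. The riser was *Pdgfrb*, a mural receptor, with a log2 fold change of 0.31 ± 0.07 (FDR = 0.0065). Without culture 3 at 100 ng/ml, 9 matrix genes were called (8 up) and without culture 1, 11 (9 up). Calls over all genes at 100 ng/ml ran from 940 to 2932 with each culture left out in turn, against 1500 in the main fit. The counts of 9 and 11 stand without the count of all genes for the same omission. They are therefore not a result about the matrix genes alone. None of 8 tested fibroblast and meningeal markers was called at 100 ng/ml, and 1 (*Tbx18*) fell at 30 ng/ml, where 3.71% of all tested genes fell. Their summed level was 33.9 to 41.2 TPM at 30 ng/ml and 33.1 to 37.7 TPM at 100 ng/ml.

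Of all tested genes, 4.16% rose and 3.71% fell at 30 ng/ml, and 5.83% rose and 3.93% fell at 100 ng/ml. The marker counts that follow stand beside these shares. At 30 ng/ml, 2 of 4 tested collagen VI chains (*Col6a2* and *Col6a3*) and the laminin chains *Lama1* and *Lama3* fell. There, 8 of 12 microglia markers fell too, and their sum was 6586 to 8266 TPM. At 100 ng/ml 0 of 12 was called and the sum was 7928 to 10416 TPM. The endothelial receptor *Flt1* fell at both concentrations, and of the other endothelial markers none was called. The 11 astrocyte markers summed to 4550 to 5308 TPM at 30 ng/ml, above all unstimulated cultures, with 4 risers, and to 4262 to 4718 TPM at 100 ng/ml, with 2 risers and 1 that fell. Of 12 oligodendrocyte lineage markers 3 fell at 100 ng/ml and 1 at 30 ng/ml, and 12 and 10 had a log2 fold change below 0 (median -0.17 and -0.10). Among 11 tested neuron markers 1 rose and 1 fell at 100 ng/ml, and 1 rose and 2 fell at 30 ng/ml. At each concentration 9 of these 11 were below 0, with a median of -0.30 at 100 ng/ml and -0.49 at 30 ng/ml. Of all 15360 tested genes, 7887 and 7670 were below 0. The neuron sums overlapped, at 170 to 227 TPM unstimulated, 199 to 238 TPM at 30 ng/ml and 189 to 220 TPM at 100 ng/ml. Of 5 tested choroid plexus and ependymal markers none was called at 100 ng/ml and 1 fell at 30 ng/ml. The part of these cell types in the matrix values was not tested.

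**Figure D5:**
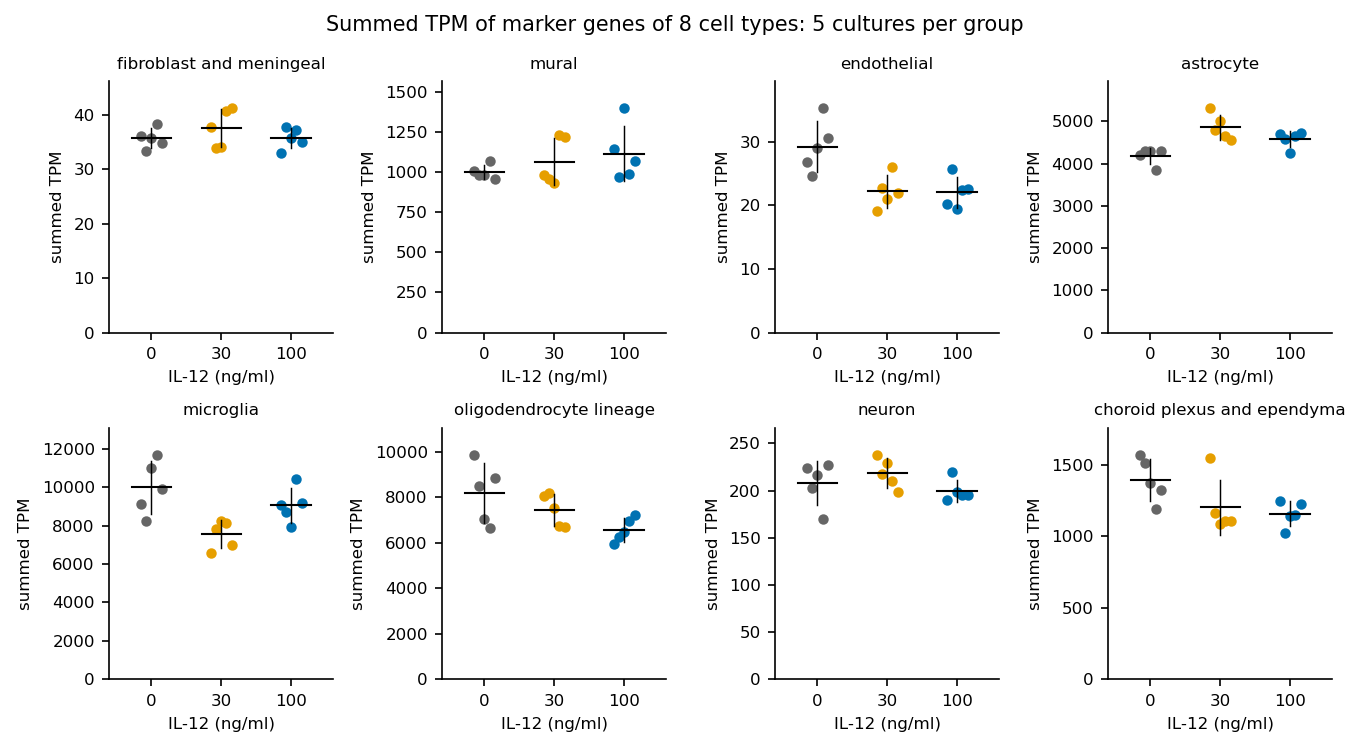
Summed TPM of marker genes of 8 cell types in each culture at 0, 30 and 100 ng/ml IL-12. Points are cultures, horizontal lines group means and vertical lines 1 SD (n = 5); the mural sum is highest in 1 culture at 100 ng/ml (1395 TPM) and the microglia sum is lowest at 30 ng/ml.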

How the data were processed

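RNA from 15 cerebellar cultures was extracted with a column kit and made into stranded mRNA libraries. Per the submitters' processing notes, the tools were FastQC 0.10.0, STAR 2.7.8a and featureCounts on GRCm39. The deposited tables hold something else: estimated counts and TPM per transcript, deposited by the authors without naming the program, which is not given in the sources used here, nor is its use of strand. Gene counts, which the plan had assumed, were therefore made by summing the deposited expected (estimated) counts of 120537 of 121798 transcripts over GENCODE M39 genes and rounding. Unmatched transcripts held 0.677% to 0.712% of reads. Reads shared by paralogs or overlapping genes are split by that unnamed program. Length-scaled counts are TPM times mean effective transcript length, rescaled to each library total.

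Genes reaching 1 CPM in 2 or more cultures were scaled by TMM (factors 0.981 to 1.020) and fitted with edgeR 4.0.16 (limma 3.58.1, R 4.3.3) in 1 model of 3 groups, with calls at FDR under 0.05. SE are the log2 fold change divided by the square root of the F statistic of that fit. In simulated counts for 100 ng/ml against unstimulated (15360 genes), 76% of genes with a log2 change of 0.5 and 97% with 1 were recovered. Each size was given to 100 genes, whereas 1500 genes were called in the data. Changes under 0.5, as in many called matrix genes, were not simulated, so their recovery is not known. Members, lists (collagen processing, receptors, hyaluronan genes, other core matrix, markers of 8 cell types) and tests were chosen with earlier results of these data known. Named genes were all called members, the 2 highest members per family, all tested collagen IV, laminin and lectican genes, up to 4 called genes per other list, and members near the threshold, chosen after their values were seen. Per-culture values were given for the 12 called members of at least 5 CPM with the smallest FDR. Alternatives were DESeq2 1.42.0, RLE factors, library size alone, other filters, length-scaled counts, a replicate block, only the groups compared, an unadjusted p under 0.01 with a log2 change of 0.5, and each culture left out; protein-coding transcripts alone were added after seeing the data. The values of 1 member, which stays in the counts, are not reported here.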

Additional observations from a re-analysis of the deposited data

Results flagged for a closer look

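*Col5a3* at 30 ng/ml had 1 culture, replicate 3, at 35.7 CPM while the other 4 lay between 39.5 and 41.0 CPM, a gap of 0.722 of the group's range, above the critical 0.71 of Dixon's test for 5 values. It was the only such case among 45 groups examined. Chance gives about 1 such case in every 20 groups, so 1 among 45 is not more than chance gives. *Col10a1* differed between the concentrations, with a log2 fold change of -0.57 from 30 to 100 ng/ml (edgeR FDR = 0.0486).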

How the results depend on the processing

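With each culture left out in turn, the number of matrix genes called was 9 to 15 at 100 ng/ml, 5 to 12 at 30 ng/ml and 0 to 2 between the concentrations, and of all genes 940 to 2932, 673 to 1668 and 38 to 147, against 1500, 1209 and 89 in the main analysis. The highest total for all genes came without 100 ng/ml replicate 2 in each comparison; the cause was not tested. DESeq2 called 16 matrix genes at 30 ng/ml and 5 (247 of all genes) between the concentrations. Library size alone gave 11 and only the groups compared 13 at 30 ng/ml, and the latter 946 of all genes at 100 ng/ml. The 16, 11 and 13 at 30 ng/ml stand without the count of all genes in the same setting. They are therefore not a result about the matrix genes alone. With library size alone, 63.1% of all genes called at 30 ng/ml were higher, against 52.9% in the main analysis. Length-scaled counts gave 903 and 769 of all genes at 100 and 30 ng/ml, and 0 matrix genes between the concentrations, as did protein-coding transcripts alone. An unadjusted p under 0.01 with a log2 change of 0.5 gave 5 and 2 matrix genes and 308 and 243 of all genes at 100 and 30 ng/ml. No direction of a called matrix gene reversed.

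The labels do not say what the replicate numbers share, and for that reason they were not taken as pairs. Deviations of same-numbered cultures correlated between -0.18 and 0.26, which cannot show whether some of them shared a preparation. Against unstimulated cultures, the correlation with the same number exceeded the highest with another number for replicates 1, 3 and 4 at 30 ng/ml (0.18, 0.26 and 0.13) and replicate 5 at 100 ng/ml (0.11). With a replicate block, 11 matrix genes were called at 100 ng/ml (without *Col12a1*, FDR = 0.0761), 7 at 30 ng/ml and 0 between the concentrations (*Col10a1* FDR = 0.116), and of all genes 1169, 1081 and 69.

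Depth limits the 11 untested matrix genes and *Col13a1*, near 1 CPM. *Matn2*, *Thbs2*, *Thbs3*, *Col5a3* and *Col10a1* at 100 ng/ml, and *Matn2*, *Thbs3*, *Lama1* and *Lama3* at 30 ng/ml, kept an FDR under 0.05 in all 24 alternatives.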
